A study of Mus musculus with 3 samples.

Results

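The Trem and Cd300 receptors are surface proteins of myeloid cells, and 7 genes were followed here: Trem1, Trem2, Trem3, Tyrobp, Cd300a, Cd300lb and Cd300lf. They were represented by the 10 probe sets that the platform annotation gives to these genes alone, of 45037 non-control probe sets and 18193 genes named in this way. The cells were mouse bone marrow-derived dendritic cells (BMDCs), grown for 10 days in GM-CSF at 10 ng/ml, a factor that drives myeloid growth. BMDC(-) was left unstimulated, BMDC(+LPS) received 10 ng/ml lipopolysaccharide (LPS) for 3 h, and BMDC(+LPS+cAMP) received the same LPS with 100 µM 8-Br-cAMP, a membrane-permeable analogue of cyclic AMP, for 3 h. LPS is a component of the bacterial outer membrane that is sensed through Tlr4. Strain, sex and age of the mice, and whether bone marrow was pooled, are not stated in the labels. Each condition had 1 array, so there is no spread between cultures, and no test or p-value was computed. No array had 8-Br-cAMP without LPS. The genes were chosen with their values on these arrays known, so the values describe these 3 arrays only.

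Trem1, Trem2, Trem3 and Cd300lb pair in the membrane with the adaptor Tyrobp (DAP12), whose tail carries an immunoreceptor tyrosine-based activation motif (ITAM) that recruits the kinase Syk. Cd300a and Cd300lf carry inhibitory motifs (ITIMs) that recruit the phosphatases Ptpn6 (SHP-1), Ptpn11 (SHP-2) or Inpp5d (SHIP-1). Trem1 is known as an amplifier of Toll-like receptor responses in neutrophils and monocytes, Trem2 as a lipid-sensing receptor of macrophages and microglia, and Cd300a as a receptor for phosphatidylserine and phosphatidylethanolamine on dying cells.

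The receptors did not move as a family. Trem1 was 24.7-fold higher by one probe set and 10.5-fold by the other with LPS+8-Br-cAMP than with LPS. Cd300lb and Cd300a were 15.7-fold and 5.74-fold lower with LPS than without it, and stayed low with 8-Br-cAMP. Cd300lf was about as high with LPS as without it and was 3.55-fold lower when 8-Br-cAMP was added. Trem2, Trem3 and Tyrobp differed by less than 2-fold in all 3 comparisons by their brightest probe sets, although Trem2 was past it under some other scalings. Signals are MAS5 probe set signals scaled to a common trimmed mean, and log2 differences were taken after values under a floor of 32.5 were set to it. Where a signal compared lay under the floor, the size of the difference is a minimum, given as "at least".

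The sequences just upstream of the gene starts are shown for the genes with the largest differences. They are the 250 bases before the start of each gene from RefSeq on build GRCm38.p6, on the gene's strand and 5′ to 3′, and 5 of the 7 genes had an entry. Capitals mark matches, on either strand, to the letters searched: the cyclic AMP response element (CRE) TGACGTCA, its core TGACG, AP-1 TGANTCA, PU.1 GAGGAA, C/EBP TTGCNNAA, the core of the interferon-stimulated response element (ISRE) and the NF-kB consensus. The whole CRE allowing 1 mismatch was added after the sequences were seen. The upstream window of Trem1, the gene highest with 8-Br-cAMP, lies at chr17:48232489-48232738 on the + strand. The windows of Cd300lb and Cd300a, the genes lowest with LPS, lie at chr11:114934372-114934621 on the - strand and chr11:114889791-114890040 on the + strand. The window of Cd300lf, the gene lower with 8-Br-cAMP, lies at chr11:115133993-115134242 on the - strand.
Trem1: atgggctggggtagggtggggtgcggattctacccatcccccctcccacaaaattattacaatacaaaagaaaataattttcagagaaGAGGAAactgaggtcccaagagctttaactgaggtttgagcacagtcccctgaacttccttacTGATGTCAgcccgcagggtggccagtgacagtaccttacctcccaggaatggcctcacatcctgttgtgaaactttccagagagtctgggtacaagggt
Cd300lb: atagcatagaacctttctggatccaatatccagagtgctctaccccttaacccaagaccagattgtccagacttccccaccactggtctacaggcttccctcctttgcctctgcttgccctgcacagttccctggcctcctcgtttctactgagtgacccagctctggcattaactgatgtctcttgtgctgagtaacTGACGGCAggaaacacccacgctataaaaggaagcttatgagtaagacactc
Cd300a: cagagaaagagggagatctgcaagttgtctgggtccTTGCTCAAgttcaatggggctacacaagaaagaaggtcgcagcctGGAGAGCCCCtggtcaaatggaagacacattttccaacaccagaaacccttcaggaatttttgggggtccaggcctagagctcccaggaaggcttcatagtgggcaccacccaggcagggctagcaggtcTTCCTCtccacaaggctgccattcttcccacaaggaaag
Cd300lf: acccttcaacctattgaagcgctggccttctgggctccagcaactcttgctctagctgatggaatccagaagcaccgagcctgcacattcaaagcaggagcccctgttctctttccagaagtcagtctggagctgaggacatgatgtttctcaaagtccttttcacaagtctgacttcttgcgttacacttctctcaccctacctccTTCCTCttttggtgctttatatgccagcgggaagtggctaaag

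The whole CRE was in none of these windows, and it is in 1.55% of 32851 such windows of all RefSeq promoters in the table. The Trem1 window held TGATGTCA, a CRE with 1 mismatch, starting 99 bases before the gene start. The Cd300lb window also held such a match, TGACGGCA, starting 52 bases before the start and containing the CRE core. A CRE with 1 mismatch is in 9.29% of all windows and the core in 17.8%. The PU.1 letters were found for Trem1, Cd300a and Cd300lf, in their windows as in 23.3% of all. The Cd300a window also held a C/EBP match (9.56% of all windows) and an NF-kB match (7.25%). The AP-1 letters (6.75%) and the ISRE core (2.98%) were in none of the 4 windows shown. The Trem2 window, searched but not shown, held the CRE core starting 185 bases before the gene start. It also held an AP-1 match starting 9 bases before it and the PU.1 letters. A match describes these letters and is not a binding site.

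**Figure D1:**
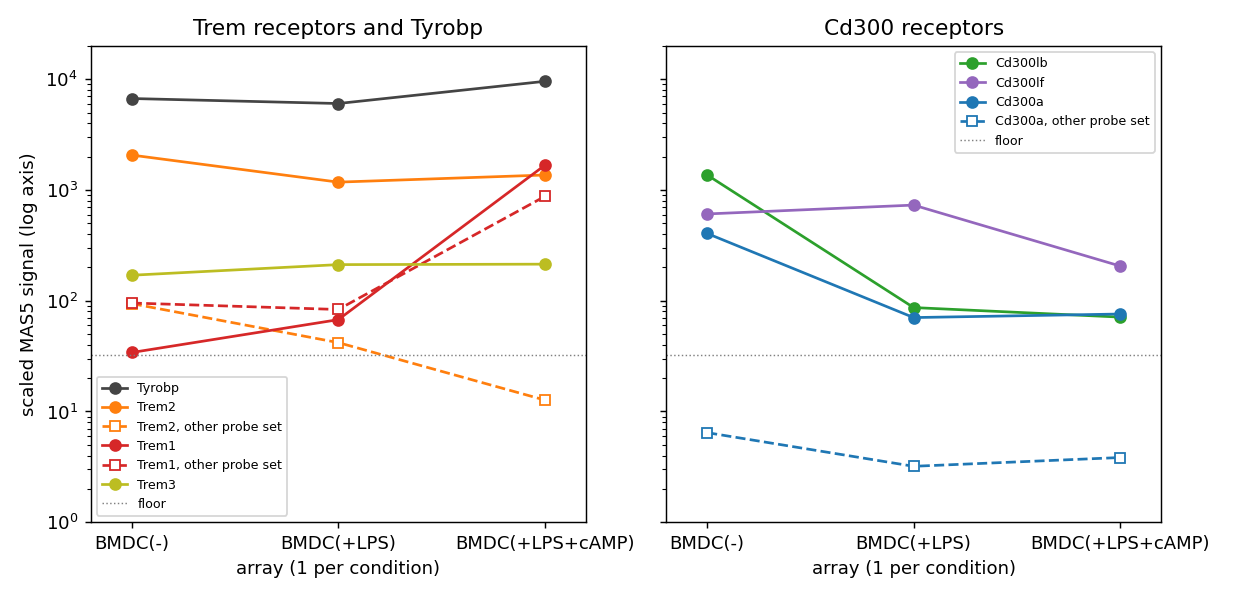
Scaled MAS5 signal on a log axis for every probe set of the 7 genes on the 3 arrays, 1 array per condition. Filled circles are the probe set of a gene with the highest mean over the arrays, open squares another one, and the dotted line is the floor at 32.5. Both Trem1 lines are highest on the BMDC(+LPS+cAMP) array, at 1668 and 874, while the Cd300lb line is highest on the BMDC(-) array, at 1366.

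The cultures were first set against markers of the labelled cell type and of other cells. All 14 dendritic cell markers, such as Itgax and H2-Ab1, were above the floor on every array. Their summed scaled signals were 34182 in BMDC(-), 47448 in BMDC(+LPS) and 60539 in BMDC(+LPS+cAMP). Bright genes lead such sums: Cd74 read 8500, 9664 and 13714 in that order, while Itgax read 1518, 1347 and 1165. The median log2 difference of the list from unstimulated cells was 0.23 with LPS and 0.35 with LPS+8-Br-cAMP (all genes -0.21 and -0.12). All 12 macrophage and monocyte markers on the array, among them Csf1r and C1qa, were also above the floor on every array (sums 42482, 49347 and 59734). This sum rose mainly with Cd14 (4222, 10940 and 20763), while C1qa read 3771, 2737 and 1537. The median log2 difference of this list from unstimulated cells was -0.05 with LPS and -0.38 with LPS+8-Br-cAMP. The sums therefore do not measure numbers of cells. Of 16 granulocyte markers 10 were at least 2-fold lower with LPS+8-Br-cAMP than with LPS, beside 5.81% of all genes. Their sums were 44111, 46099 and 24152 in the order above, and Cxcr2 alone was under the floor with LPS+8-Br-cAMP. Of 5 eosinophil markers 2 (Ccr3 and Il5ra) were under the floor on every array, while Prg2 (1120, 1189 and 387) and Epx (140, 162 and 48.1) were above it and lower with 8-Br-cAMP. Siglecf was also above it but close on every array (58.4, 53.7 and 56.1). Of 6 T cell markers 3, 5 and 6 were under the floor in the same order of arrays, with Cd3e, Cd3g and Cd4 under it throughout, and of 6 natural killer cell markers 2, 3 and 2, with Klrk1 and Klrd1 above it throughout. B cell markers were split: with 8-Br-cAMP against LPS 1 of 6 measured was at least 2-fold lower (median -0.06), Ighm, at 3086, 1495 and 52.5 in that order. Of 6 plasma cell markers 2 were at least 2-fold lower in that comparison, Jchain and Igha, and 1 higher, Sdc1 (median -0.47). Xist, the RNA that coats the inactive X chromosome, read 1716 with LPS+8-Br-cAMP and was under the floor on the other arrays. The Y-linked Eif2s3y read 352, 272 and 1.24, and the brightest probe sets of Uty and Kdm5d were likewise under the floor only with LPS+8-Br-cAMP. By these transcripts the BMDC(+LPS+cAMP) culture read as female and the other cultures as male, so they came from different mice. The effect of 8-Br-cAMP and any difference between these cultures, sex included, cannot be told apart. In RNA from whole cultures, fewer cells of a type and less RNA per cell also cannot be told apart.

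The first comparison asks what LPS does to the receptors. None of the 7 genes (0) was 2-fold or more above its unstimulated level, and 2 were 2-fold or more below it. Over all 12283 genes measured, 6.64% were higher and 13.0% lower by that much. The median log2 difference was -0.15 over the 7 genes and -0.21 over all genes. Of all genes past 2-fold 33.8% were higher, and this share ran from 14.1% to 45.7% under the other scalings. The scatter of a single probe set within these arrays, called the error of 1 probe set, was 0.45 log2 units, taken from 4029 genes with at least 2 probe sets. It does not include the spread between cultures.

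Cd300lb, an activating receptor of myeloid cells that pairs with Tyrobp, read 1366 in unstimulated cells, 86.8 with LPS alone and 71.2 when 8-Br-cAMP was added. The unstimulated array was far above the others, which differed from each other by less than the error of 1 probe set. The log2 difference of LPS from unstimulated was -3.98, the 3rd lowest of the 12283 genes, and it lay between -4.36 and -3.55 over 11 settings. Only 1 probe set named Cd300lb alone, so the value has no second probe set beside it.

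Cd300a, an inhibitory receptor, read 405 in BMDC(-), 70.5 in BMDC(+LPS) and 75.9 in BMDC(+LPS+cAMP) by its brightest probe set. It was high only without LPS. Its log2 difference with LPS was -2.52, the 53rd lowest of all genes. The second Cd300a probe set was under the floor on all 3 arrays, at 6.44, 3.20 and 3.84, and gave no difference. The mean over both Cd300a probe sets, one of them at the floor throughout, gave a log2 difference of -1.26.

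Trem2 read 2067 without LPS, 1178 with it and 1366 with 8-Br-cAMP as well. It was highest without LPS. The log2 difference with LPS was -0.81, larger than the error of 1 probe set but under 2-fold. It was past 2-fold under quantile normalization (-1.15), spike scaling (-1.20) and with the signals as deposited (-1.10). Its dimmer probe set read 94.2, 41.9 and 12.7, a log2 difference with LPS of -1.17. Both probe sets were therefore lower with LPS. With 8-Br-cAMP against LPS their signs differed. The brighter gave 0.21, and the dimmer, which was under the floor there, was at least 1.29-fold lower (-0.37). Both values were smaller than the error of 1 probe set in that comparison (0.48), so a disagreement was not shown.

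Cd300lf, Trem3 and Tyrobp were close on the arrays with and without LPS. Cd300lf, an inhibitory receptor known for binding ceramide and for being the entry receptor of murine norovirus, read 608 unstimulated and 731 with LPS, a log2 difference of 0.27. Trem3, an activating receptor of mouse macrophages and neutrophils, read 170 and 212, a difference of 0.32. Tyrobp, the shared adaptor, read 6702 and 6040, a difference of -0.15. These 3 differences were smaller than the error of 1 probe set.

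Trem1 read 34.1 unstimulated, just above the floor, and 67.5 with LPS. The log2 difference of 0.99, a 1.98-fold difference, was just short of 2-fold. The other Trem1 probe set read 95.4 and 83.4, a difference of -0.19. The probe sets thus gave opposite signs, and a difference of Trem1 with LPS alone was not settled by these arrays. Equal medians, quantile normalization and cyclic loess each put the first of these probe sets past 2-fold. That probe set has the higher mean over the 3 arrays only through the LPS+8-Br-cAMP array, and it is the dimmer of the pair on both arrays compared here.

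**Figure D2:**
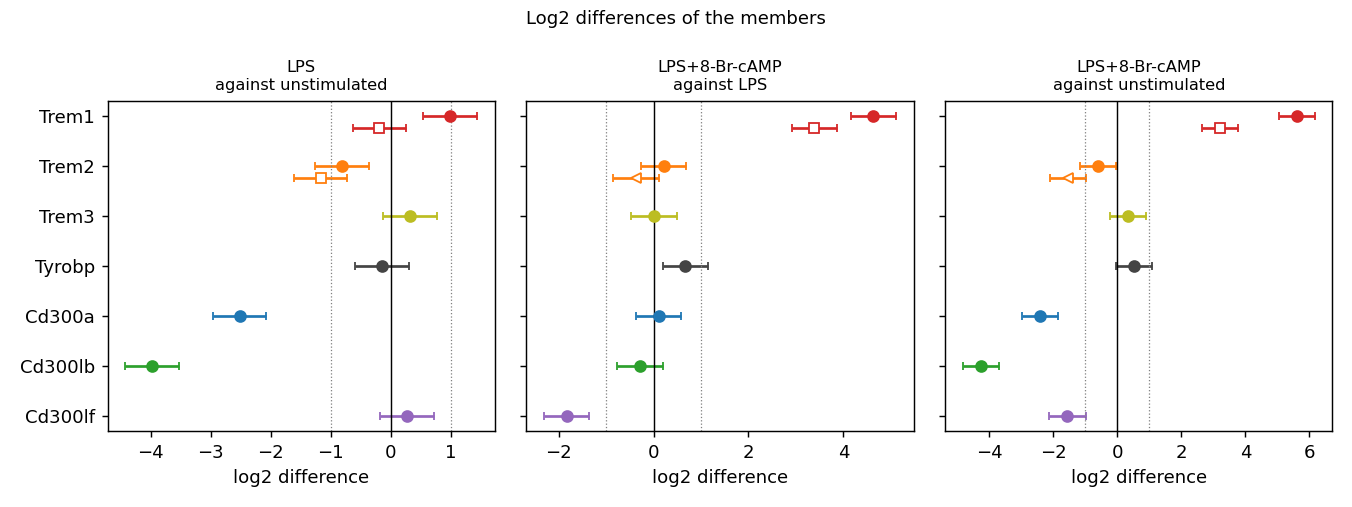
Log2 differences of each gene in the 3 comparisons. Filled circles are the probe set with the highest mean over the arrays, open squares another one, open triangles a lower bound, bars the error of 1 probe set (SD 0.45, 0.48 and 0.56 from left to right), and dotted lines mark 2-fold. Cd300lb and Cd300a stand apart at -3.98 and -2.52 in the left panel, Trem1 at 4.63 and Cd300lf at -1.83 in the middle one.

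The second comparison asks what 8-Br-cAMP adds to LPS. Trem1 was the 1 gene of the 7 that was 2-fold or more higher, and Cd300lf the 1 that was 2-fold or more lower. Over all 12572 genes measured, 6.49% were higher and 5.81% lower by that much. The median log2 difference was 0.11 over the 7 genes and 0.05 over all genes. Of all genes past 2-fold 52.8% were higher, but 72.7% with spike scaling and 3.13% with the signals as deposited, since the LPS+8-Br-cAMP array was the dimmest (deposited trimmed mean 63.2, against 111 with LPS and 135 unstimulated). The median of all genes was -0.65 as deposited.

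Trem1 read 1668 with LPS+8-Br-cAMP against 67.5 with LPS and 34.1 unstimulated. The LPS+8-Br-cAMP array was far above both others, and the deposited signals before scaling, 1024 against 72.6 and 44.6, have the same order. By this brightest probe set the log2 difference from LPS was 4.63, the 2nd highest of 12572 genes after the sex-linked Xist. In this ranking a minimum counts at its bound, as for Has1 at 4.3, so the rank is not exact. The other probe set read 874 against 83.4, a log2 difference of 3.39 or 10.5-fold. That is smaller than the values of Has1, Crem (4.1) and Dusp1 (3.72), so the rank also depends on the probe set. Over 11 settings the Trem1 value lay between 3.82 and 4.83. Both probe sets were several errors of 1 probe set (0.48, from 3799 genes) above zero. The probe set that was brighter with LPS+8-Br-cAMP gave the larger difference. Against unstimulated cells, Trem1 was 49.0-fold higher by the first and 9.16-fold by the other probe set. The granulocyte markers were lower on this array, the opposite direction to Trem1, and the part of cell make-up in the Trem1 value was not tested.

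Cd300lf read 206 with LPS+8-Br-cAMP against 731 with LPS and 608 unstimulated. The array with 8-Br-cAMP was the low one. The log2 difference from LPS was -1.83, the 74th lowest of all genes, and it lay between -2.64 and -1.63 over 11 settings. From unstimulated cells it was -1.56. The granulocyte markers went the same way between these arrays, and their part in the Cd300lf value was not tested.

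Tyrobp read 9579 with LPS+8-Br-cAMP against 6040 with LPS, a log2 difference of 0.67. This exceeds the error of 1 probe set, but the value ran from 0.31 with quantile normalization to 0.87 with spike scaling. Its sign turned only without scaling, to -0.14 with the signals as deposited. Trem3 read 214 against 212, with a log2 difference of 0.01. It therefore did not follow Trem1, its neighbour on the chromosome. Cd300a and Cd300lb differed by 0.11 and -0.29 from LPS, less than the error of 1 probe set. With the signals as deposited these became -0.70 and -1.10, beside the shift of -0.65 in the median of all genes.

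Set against unstimulated cells, the array with LPS+8-Br-cAMP had 1 of the 7 genes higher by 2-fold or more (Trem1) and 3 lower (Cd300a, Cd300lb and Cd300lf). Over all 12793 genes the shares were 9.36% and 15.8%. The log2 differences were 5.61 for Trem1, -4.26 for Cd300lb, -2.41 for Cd300a and -1.56 for Cd300lf. By their brightest probe sets Trem2, Trem3 and Tyrobp differed by -0.60, 0.33 and 0.52, near the error of 1 probe set in this comparison, 0.56. The dimmer Trem2 probe set was at least 2.90-fold lower. The sign for Tyrobp turned under other scalings, to -0.06 with quantile normalization, -0.15 with cyclic loess and -0.58 as deposited, and that for Trem3 turned to -0.76 as deposited, where Trem2 was past 2-fold (-1.69). All 3 comparisons share arrays, so these values follow from those above.

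**Figure D3:**
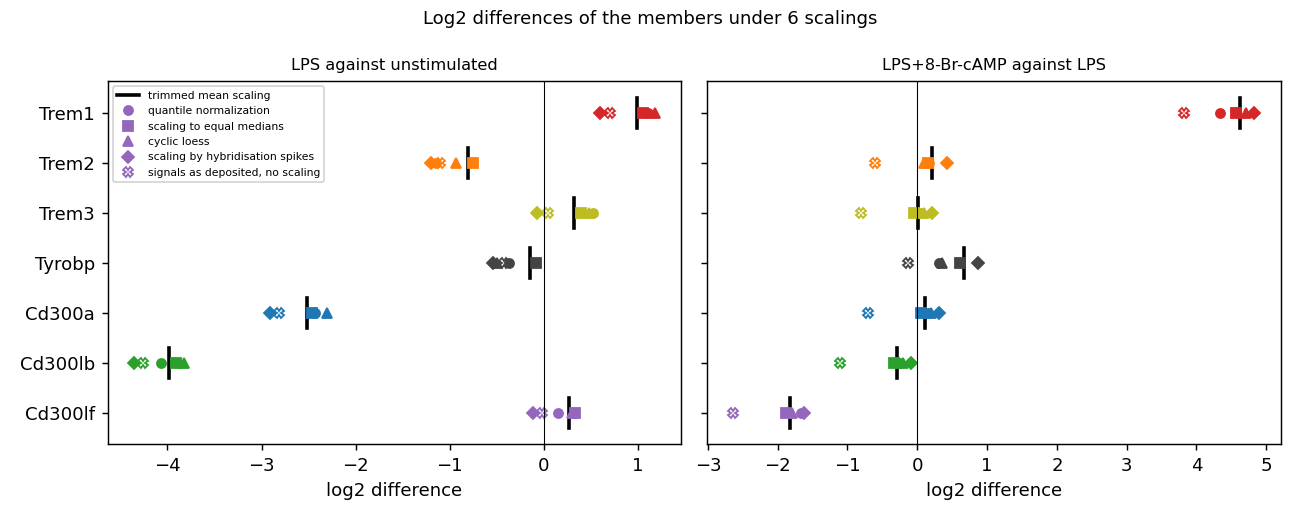
Log2 differences of each gene under 6 scalings, counting the signals as deposited without scaling, with LPS against unstimulated on the left and LPS+8-Br-cAMP against LPS on the right. The black bar is the trimmed mean scaling used in the text and the symbols are the other scalings. In the right panel Trem1 stays between 3.82 and 4.83 and Cd300lf between -2.64 and -1.63. Trem2, Tyrobp and Cd300a lie below zero only with the signals as deposited, and Trem3 also with equal medians (-0.04).

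The Trem genes lie together on chromosome 17 and the Cd300 genes on chromosome 11. In the Trem cluster the order is Trem1, Trem3, Treml4, Treml2, B430306N03Rik, Trem2 and Treml1. Of these, Trem1 alone passed 2-fold upwards when 8-Br-cAMP was added to LPS. Treml1, a receptor of platelets and megakaryocytes, read 104 in BMDC(-), 95.9 in BMDC(+LPS) and 24.2, under the floor, in BMDC(+LPS+cAMP), at least 2.95-fold lower than with LPS alone. Treml2 read 94.2, 144 and 119, and Treml4 was under the floor on all 3 arrays.

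In the Cd300 cluster the genes measured on these arrays stand in the order Cd300a, Cd300lb, Cd300ld, Cd300c2, Rab37 and Cd300lf. Cd300a, Cd300lb, Cd300ld and Cd300c2 were all lower with LPS, with log2 differences of -2.52, -3.98, -1.24 and -0.98. Cd300ld read 420, 177 and 112, and Cd300c2 read 2413, 1222 and 1360. Cd300lf, at the other end, was the exception with 0.27. Cd300c, Cd300e and the other Cd300ld genes had no probe set of their own in the annotation used here.

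**Figure D4:**
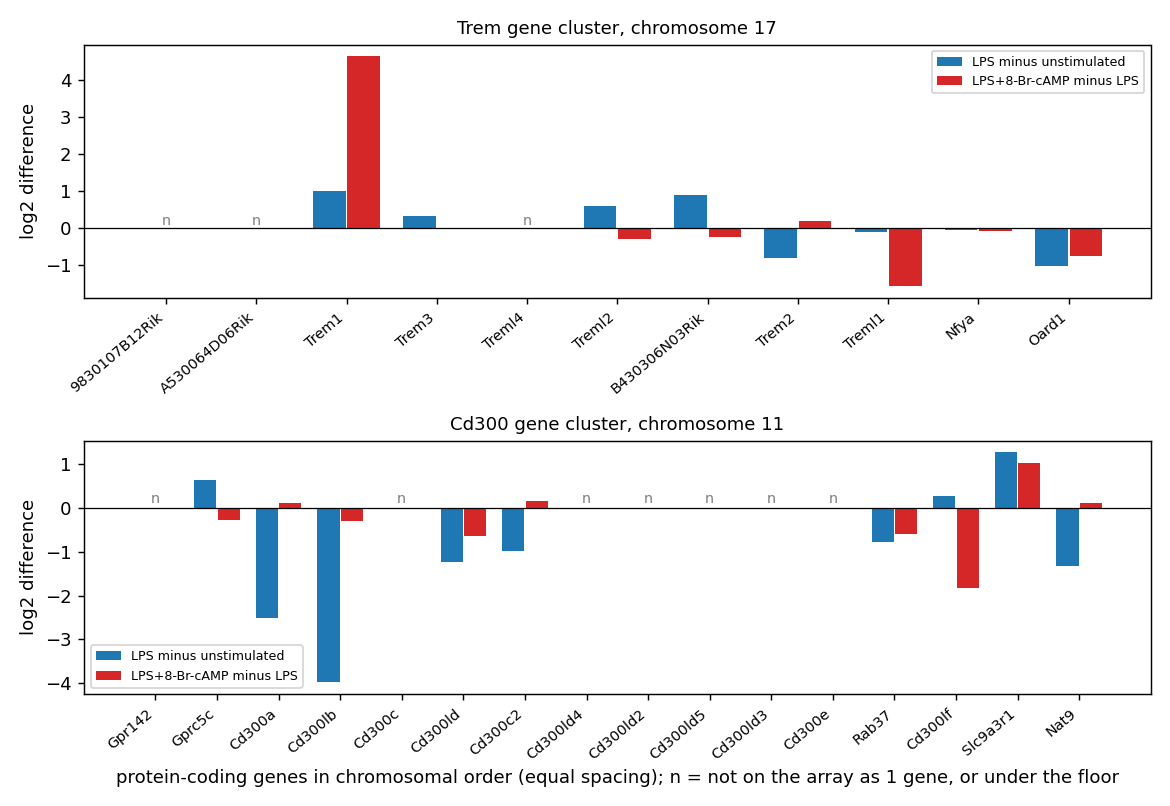
Log2 differences of the protein-coding genes in chromosomal order through the Trem cluster (top) and the Cd300 cluster (bottom), with flanking genes. Blue bars are LPS minus unstimulated, red bars LPS+8-Br-cAMP minus LPS, and n marks a gene with no value; the red bars of Treml1 and Rab37 and the blue bar of Gprc5c rest on a signal under the floor and are lower bounds. The red Trem1 bar (4.63) has no counterpart at Trem3 (0.01), and the blue bars of Cd300a, Cd300lb, Cd300ld and Cd300c2 all point down.

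The pattern of each gene over both steps was compared with that of 8032 brighter genes, as the distance in the plane of the LPS difference and the 8-Br-cAMP difference. This rests on 3 arrays, so it is a description. Each gene was placed by its brightest probe set. No gene lay within 0.5 of Trem1 placed in this way. Its nearest genes were the phosphatase Dusp1 at a distance of 1.01 (240, 347 and 4590) and the hyaluronan synthase Has1 at 1.04. The cytokine Csf3 at 1.29, the transcriptional repressor Crem at 1.37 (140, 116 and 1983) and the sex-linked Xist at 1.47 came next. Has1 and Xist were under the floor on the arrays without 8-Br-cAMP and Csf3 on the unstimulated one, so their places are bounds. The LPS difference of Trem1 was itself not settled, and its other probe set gave -0.19 and 3.39. From there Crem (-0.27 and 4.1) lies nearer than Dusp1 (0.53 and 3.72). Another Crem probe set gave 0.64 and 3.55 and lies farther from there than Dusp1. This order therefore depends on the probe sets of both Trem1 and Crem.

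Cd300lb also stood nearly alone, with 1 gene within 0.5, the chemokine receptor Cxcr4 at 0.43 (1048, 59.4 and 37.0). Sesn1, Inpp5d, Cerk and Tsc22d3 followed, at 0.51 to 0.93. Sesn1 was under the floor with LPS+8-Br-cAMP, so its place is a bound. With LPS its other probe sets gave -2.08 and -1.84, both bounds, and -0.32, while the second Inpp5d probe set gave -1.23. These places therefore depend on the probe set. Cd300a had 43 genes within 0.5, nearest Stx17, Gpr160, Bmyc, Slc40a1 and Slc36a1, of which the first 4 were under the floor on the LPS array. Cd300lf had 76, nearest Rufy3, Anpep, Ptpn6, Atr and Msmo1, although the second Ptpn6 probe set gave 0.04 with 8-Br-cAMP. Trem2, Trem3 and Tyrobp lay where genes are dense, with 1536, 1372 and 1156 genes within 0.5. Their nearest genes, Selenoh, Zfp429 and Tox2, are therefore among many with much the same values.

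**Figure D5:**
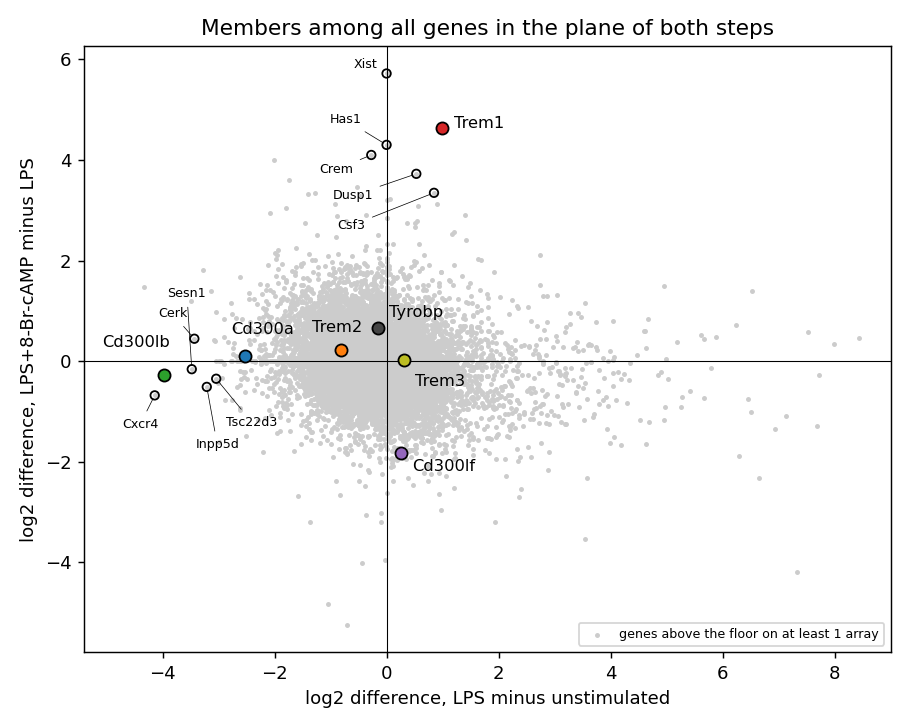
Log2 difference of LPS from unstimulated (x axis) against that of LPS+8-Br-cAMP from LPS (y axis) for genes above the floor on at least 1 array (grey), with the 7 genes in colour and the 5 genes nearest to Trem1 and to Cd300lb as open circles. Points with an array under the floor are bounds. By its brightest probe set Trem1 lies at 0.99 and 4.63 with no gene within 0.5. The other Trem1 probe set, not drawn, gave -0.19 and 3.39. Cd300lb lies at -3.98 and -0.29.

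Other genes of the pathway were taken from lists, some of which overlap with the marker lists. The counts of each list below stand beside the shares of all measured genes past 2-fold. With LPS 6.64% of all genes were higher and 13.0% lower (median -0.21). With 8-Br-cAMP against LPS 6.49% were higher and 5.81% lower (median 0.05). A count near these shares is not a trait of its list. Of 18 measured receptors that pair with ITAM adaptors, 3 were at least 2-fold higher with LPS and 2 lower (median -0.08). Clec4e, a sensor of mycobacterial glycolipid, was higher by 3.03, the Fc receptor Fcgr1 by 1.49 (0.53 by its second probe set) and the Tyrobp-coupled lectin Clec5a by 1.21. Sirpb1a and Klrd1 differed by -1.18 and -1.02. With 8-Br-cAMP 2 of 19 were higher and 2 lower than with LPS (median 0.33). The Fc receptors Fcgr4 and Fcgr3 were higher by 1.76 and 1.06, and Clec5a and the integrin chain Itgb3 differed by -1.59 and -2.22. Clec5a, which pairs with Tyrobp as Trem1 does, read 249, 576 and 192. With 8-Br-cAMP it was lower than with LPS, where Trem1 was higher. Its difference from unstimulated cells there, -0.38, was smaller than the error of 1 probe set (0.56).

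Of 31 measured ITAM adaptors and downstream signalling genes, 4 were at least 2-fold higher and 4 lower with LPS (median 0.07). The scaffold protease Malt1 was higher by 2.94, the kinase Src by 2.34 and the adaptors Lcp2 and Lat by 1.64 and 1.55, while the adaptor Lat2 differed by -1.99. With 8-Br-cAMP 0 of 31 were higher and 5 lower (median -0.20). These were Lat, at least 3.36-fold lower, Vav1 (-1.65), Pik3cb (-1.28), Ptk2b (-1.22) and Malt1, which was right at the threshold by its brightest probe set and differed by -1.70 and -2.38 by its others. The second Vav1 probe set gave 0.48, against the sign of the first, and that of Ptk2b gave -0.43. Src differed by -0.20 by its brightest probe set but by -1.73 by its other. Syk, the kinase bound by Tyrobp, read 996, 1172 and 1220 and passed 2-fold in neither comparison. The partner adaptors Fcer1g (3841, 5372 and 6088) and Hcst (104, 116 and 167) did not pass it either.

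Of 17 measured inhibitory receptors of myeloid cells, 2 were at least 2-fold higher and 4 lower with LPS (median -0.11). Cd200r1, which inhibits without an ITIM, differed by -1.53, Clec4a2 by -1.49 (-0.51 by its second probe set) and Lair1, a collagen receptor, by -1.23. Pilra was higher by 1.12 and Slamf8, listed here although it is not a typical ITIM receptor, by 2.37. With 8-Br-cAMP 1 of 18 was higher, Milr1 (1.08), and 2 were lower, Slamf8 (-2.71) and Cd200r1 (-1.27), with a median of -0.01.

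Of 11 measured phosphatases and adaptors of ITIM signalling, 2 were at least 2-fold higher and 2 lower with LPS (median 0.20). Inpp5d read 655, 70.7 and 49.5, a log2 difference of -3.21 with LPS, but -1.23 by its second probe set. The adaptor Dok2 differed by -2.37, while the phosphatase Ptprj and the adaptor Dok1 were higher by 1.73 and 1.32. With 8-Br-cAMP 1 of 12 was higher, Ubash3b (1.03, but 0.66 and 0.14 by its other probe sets), and 1 lower, Ptpn6 (median 0.02). Ptpn6 read 795, 910 and 256 by its brightest probe set, a difference of -1.83 from LPS, but 240, 265 and 273 by its second, a difference of 0.04. Its probe sets therefore disagree on 8-Br-cAMP.

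A list of ligands, lipid carriers and sheddases also held other receptors, such as Mertk and Il4ra, which count in its numbers. It showed 0 of 12 measured genes past 2-fold with LPS in either direction (median -0.02). With 8-Br-cAMP 2 of 12 were at least 2-fold higher and 5 lower (median -0.48), beside 6.49% and 5.81% of all genes (median 0.05). Pglyrp1, a granule protein and ligand of Trem1, read 330, 308 and 37.8, a difference of -3.03 from LPS, so ligand and receptor transcripts went opposite ways on this array. Pglyrp1 and Cd177 (-1.29) are also granulocyte markers, and 10 of the 16 markers of that list were at least 2-fold lower here. Adam17, a protease that sheds Trem receptors, differed by -1.46, and by -1.48 and -1.06 by its other probe sets. The efferocytosis receptor Mertk differed by -1.65. Il4ra, the interleukin-4 receptor chain with which Cd300lf is known to associate, was higher by 1.66 and by 1.12 by its second probe set. Apoe, a lipid carrier bound by Trem2, read 8669, 8639 and 9772 and differed by less than the error of 1 probe set in both steps.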

How the data were processed

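Total RNA of 3 BMDC cultures was labelled as biotinylated cRNA and hybridised to Affymetrix Mouse 430 2.0 arrays, per the labels' protocols. The authors deposited 1 linear signal intensity per probe set, which the submitters' processing notes attribute to MAS5. The MAS5 version, target and settings are not stated there. Of 45101 probe sets 64 controls were left out. Each array was scaled by its 2% trimmed mean to the average of the 3 (factors 0.763, 0.929 and 1.63), a floor was set at the highest scaled median, 32.5, and log2 was taken. The floor stands in for a detection limit, as no detection calls were used. The brightest probe set on average stood for a gene, which counted as measured when above the floor on at least 1 array compared. Genes were counted as higher or lower at 2-fold. Probe sets were named from GEO's platform annotation where it gives 1 gene.

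The error of 1 probe set is the SD of the difference between the log2 differences of a gene's brightest probe sets, divided by the square root of 2. Precision is limited by the number of arrays. The 7 genes, the lists and the alternatives were chosen with earlier results of these data known. All 7 genes are named, with up to 5 genes per list and comparison, those past 2-fold with the largest differences, and with Pglyrp1 and Il4ra. Syk, Hcst, Fcer1g, Apoe and the genes of the chromosomal clusters were named for their role or place after values were seen. The steps were tested on simulated data. Alternatives were other scalings (limma 3.58.1 for quantile normalization and cyclic loess), floors, a pseudocount, probe set choices and thresholds. Chromosomal order and promoter windows come from RefSeq on GRCm38.p6. The build of the deposited files is not needed, as they hold no coordinates.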

Additional observations from a re-analysis of the deposited data

How the results depend on the processing

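With 1 array per condition no array could be left out of a comparison. No paired analysis was possible because each condition has a single array. Of 207 values of single genes under the alternatives, 178 moved by less than the error of 1 probe set, 29 by more, and 0 of those past 2-fold changed sign. With LPS, the count of genes at least 2-fold higher was 0, but 1 (Trem1) under quantile normalization, equal medians, cyclic loess and a threshold of 1.5-fold. The count lower was 2, but 3, with Trem2, under quantile normalization, spike scaling, signals as deposited, _at probe sets only and 1.5-fold. With 8-Br-cAMP against LPS, the count higher was 1, but 2 at 1.5-fold (Trem1 and Tyrobp). The count lower was 1, but 2 with the signals as deposited, which added Cd300lb. The median over the 7 genes was 0.11, but -0.70 as deposited. Against unstimulated cells 3 genes were lower, but 4, with Trem2, as deposited, with the mean over probe sets, with _at probe sets only and at 1.5-fold, and 2 at 3-fold. There the median was -0.60, but -1.69 as deposited and -1.53 with probe sets ending in _at only, where Trem2 is read by its dimmer probe set. Without scaling, the dimness of the LPS+8-Br-cAMP array remains in these values. With the floor at the 75th percentile, Trem1 gave no value with LPS against unstimulated, nor did Cd300a and Cd300lb with 8-Br-cAMP against LPS. Dim signals limit Trem1 most on the unstimulated array, where 34.1 lies just above the floor. The counts over all genes moved by over 1.5 times under several settings: with LPS 815 were higher and 1597 lower, but 499 and 3040 with spike scaling, and with 8-Br-cAMP 816 and 730, but 93 and 2882 as deposited and 2326 and 1873 with the floor at the 25th percentile.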

Other observations

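Genes that flank the receptor clusters were read because of their place. Slc9a3r1, a scaffold protein gene next to Cd300lf, read 818 in BMDC(-), 1971 in BMDC(+LPS) and 4034 in BMDC(+LPS+cAMP). Its log2 differences were 1.27 with LPS and a further 1.03 with 8-Br-cAMP. Its other probe sets gave 1.41 and 1.36 with LPS, and 0.98 and 0.86 with 8-Br-cAMP. In the step from LPS to LPS+8-Br-cAMP it was higher where Cd300lf, its neighbour, was lower (-1.83). Rab37, on the other side of Cd300lf, read 83.6, 48.9 and 7.37. Oard1, beyond Treml1, read 166, 81.6 and 48.4, while Nfya, between them, read 288, 280 and 265.

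The gene with the annotation symbol B430306N03Rik lies between Treml2 and Trem2. It read 160, 298 and 253 in the same order, log2 differences of 0.89 and -0.24.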
